A study of Mus musculus with 8 samples.

Results

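The mesothelial genes described here are 8 genes that mark the mesothelium, the flat epithelium that covers the lung, namely Wt1, Msln, Upk3b, Upk1b, Lrrn4, Rspo1, Muc16 and Gpm6a. They were chosen by name and matched by symbol to 8 of the 55385 gene IDs in the count files, each to a single ID. Whole lungs of C57BL/6 mouse fetuses were collected at E18.5, 4 from control fetuses and 4 after tracheal occlusion (TO), in which the trachea had been tied at E16.5 through the uterine wall, together with a carotid artery and a jugular vein. The comparison asks what occlusion, which keeps the secreted fluid inside the airways, does to the mRNAs of the lung. Whether control fetuses had sham surgery and which lungs were littermates are not given in the sources used here. Lungs are named by group and replicate number.

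The mesothelium forms the visceral pleura and continues over the heart as the epicardium and over the abdominal organs as the peritoneum. In the developing lung it secretes growth factors and supplies retinoic acid to the mesenchyme beneath it, and cells with a history of Wt1 expression enter that mesenchyme. Several of the 8 genes are also transcribed in other cells that a dissected lung can hold: Msln in alveolar type 1 cells, Muc16 in airway epithelium, Gpm6a in neurons, and Wt1 and the uroplakin genes in epicardium. The study itself lists Msln among markers of the flat alveolar epithelial cells. In RNA of whole lungs, fewer cells of a type and less RNA per cell cannot be told apart.

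Read pairs counted on genes numbered 22822261 to 35002061 in 7 libraries and 270078 in TO 1. Levels are given in CPM, which are counts scaled to the size of the library, with TMM factors over all 8 libraries. In TO 1 a single read pair is worth 3.43 CPM. All 8 genes had at least 1 read pair in every library, with 168 or more in each of the 7 deep ones and 1 to 34 in TO 1. The values stated first come from 6 libraries, controls 1, 2 and 4 and TO 2, 3 and 4, and fits with control 3 added (7 libraries) and with all 8 libraries follow. The smaller selection is that displayed in the study, which gives no reason for it. Log2 fold changes are TO against control, from the quasi-likelihood test of edgeR, with p adjusted over all genes tested and called under 0.1. Genomic positions are those of GENCODE M21 on GRCm38.

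No difference between TO and control lungs was called for any of the 8 genes. In the 6 libraries edgeR called 0 of the 8, where the share called among all 21859 genes tested was 0%, and DESeq2 also called 0 of the 8, where 0.239% of its genes were called. In the 6 libraries Muc16 was the only gene of the 8 with an unadjusted p under 0.05, in edgeR, DESeq2 and limma-voom alike. In edgeR 5.14% of all genes had such a p, and 3.07% had it with a higher level in TO. With control 3 added and in all 8 libraries 0 of the 8 genes had an unadjusted p under 0.05, against 2.0% and 2.35% of all genes. These fits have no block, and with a block in all 8 libraries Msln and Muc16 had such a p in the fits given with each gene below. The 3 TO and 3 control lungs overlapped for all 8 genes, so that 0 of 8 were separated, whereas 10.9% of all genes were, 5.06% with the TO lungs on top. All 8 log2 fold changes were above 0, as were 49.3% of those of all genes, and their median was 0.25, against -0.0045 over all genes tested. With control 3 added, 4 of the 8 were above 0 and 4 below, and the median was 0.031, against -0.010 over all genes. In all 8 libraries the split was again 4 and 4, with a median of -0.0040, against -0.018 over all genes. Of the 6 libraries, TO 2 turned the most signs when left out, since without it Msln (-0.0078), Upk3b and Upk1b were below 0. The median was then 0.10. Without control 1 Upk3b and Upk1b were below 0, and the median was lower still, at 0.083.

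**Figure D1:**
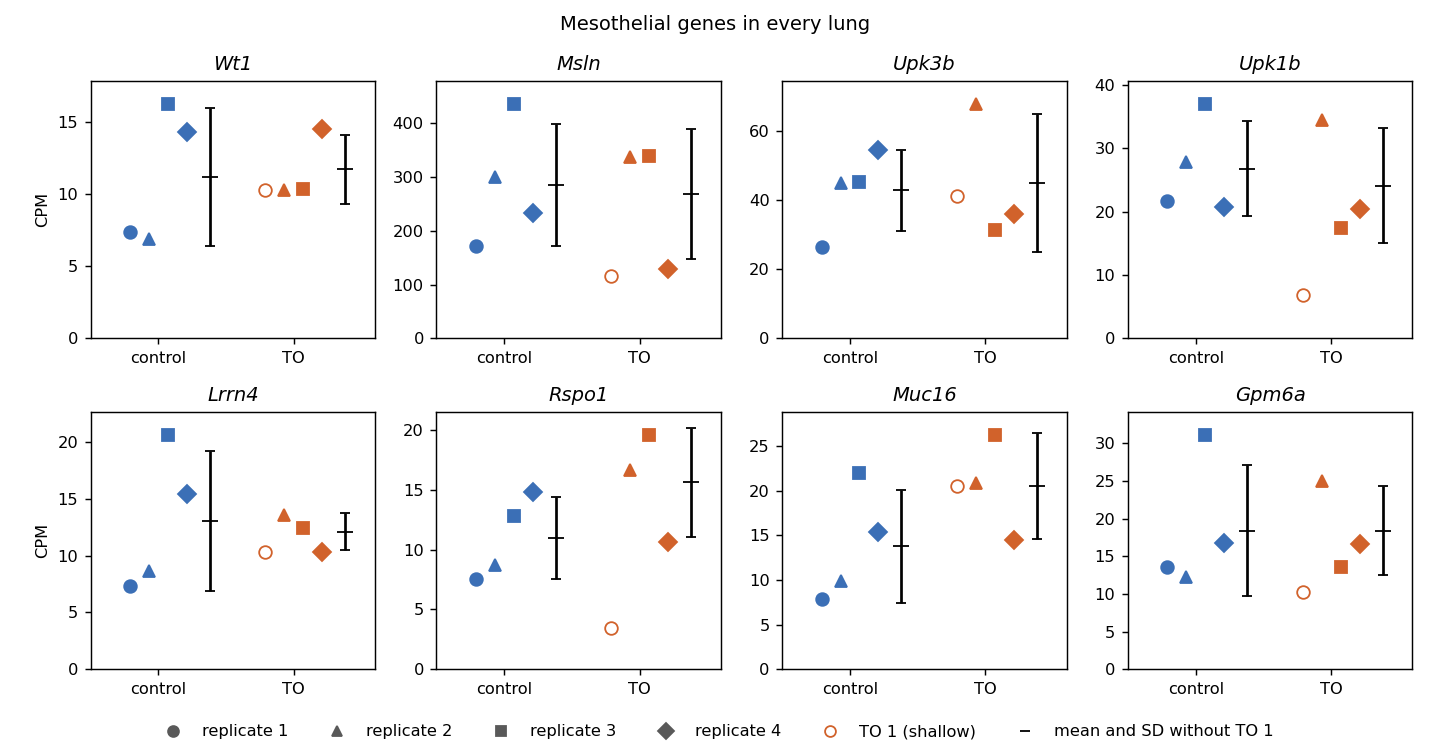
CPM of the 8 mesothelial genes (vertical axes, from 0) in each control and TO lung, with 1 panel for each gene, the symbol shape giving the replicate number, the open circle TO 1, and the black mark the mean and SD without TO 1. The groups overlap in every panel, and control 3 is above controls 1, 2 and 4 in 6 of the 8.

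Promoters were available for 5 of the 8 genes (RefSeq, GRCm38.p6). The 250 bases before each annotated start were searched on both strands for GGAATG, the core bound by the TEAD partners of Yap, and for GNGGGNGNG, a sequence bound by WT1 and by EGR factors. Of 32851 promoter windows of this length, 12.6% held the first and 40.1% the second. Gpm6a has 2 annotated starts, which gives 6 windows for the 5 genes, and 3 of these held the TEAD core and 3 the WT1/EGR sequence. The 4 windows with a match are shown to let the letters be read beside the levels below, 5′ to 3′ on the strand of the gene, with both kinds of match in capitals. In Lrrn4 the first capitals are a pair of overlapping WT1/EGR matches and the later ones the TEAD core, and the Upk3b window holds the TEAD core on the opposite strand.
Upk3b (chr5:136038246-136038495, + strand): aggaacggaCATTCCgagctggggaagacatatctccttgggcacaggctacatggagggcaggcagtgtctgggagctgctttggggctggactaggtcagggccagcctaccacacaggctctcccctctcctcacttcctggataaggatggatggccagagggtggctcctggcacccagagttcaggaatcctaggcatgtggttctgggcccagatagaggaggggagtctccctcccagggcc
Lrrn4 (chr2:132880863-132881112, - strand): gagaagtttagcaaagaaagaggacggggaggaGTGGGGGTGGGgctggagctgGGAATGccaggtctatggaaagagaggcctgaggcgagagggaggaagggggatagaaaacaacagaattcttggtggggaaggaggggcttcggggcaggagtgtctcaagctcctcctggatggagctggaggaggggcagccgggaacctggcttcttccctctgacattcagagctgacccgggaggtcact
Rspo1 (chr4:124986180-124986429, + strand): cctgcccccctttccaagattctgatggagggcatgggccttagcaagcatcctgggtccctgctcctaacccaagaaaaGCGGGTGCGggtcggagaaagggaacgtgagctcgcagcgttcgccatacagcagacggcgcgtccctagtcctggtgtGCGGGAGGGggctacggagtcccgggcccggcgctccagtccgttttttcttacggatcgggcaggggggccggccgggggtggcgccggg
Gpm6a (chr8:54779184-54779433, + strand): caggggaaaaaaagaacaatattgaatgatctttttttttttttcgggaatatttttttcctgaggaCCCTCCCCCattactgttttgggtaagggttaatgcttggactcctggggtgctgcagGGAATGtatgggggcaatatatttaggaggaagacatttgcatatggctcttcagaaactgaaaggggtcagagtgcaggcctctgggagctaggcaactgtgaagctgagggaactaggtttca
The windows of Upk3b, Lrrn4, Rspo1 and Gpm6a shown had a GC content of 60.8%, 59.2%, 66.8% and 44.4%. The window of Muc16 and the other window of Gpm6a held no match to these letters. That other window (chr8:54954478-54954727) lies just before Gpm6a as positioned here, which begins at 54954843. The Gpm6a window shown belongs to a start farther upstream, outside the gene as positioned here.

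Levels of the 8 genes were compared with one another only per kilobase of exons. Msln was by far the most abundant, with a mean of 93.1 ± 36.8 CPM per kilobase (SD, n = 4 controls), 7.26 times the mean of the next gene. Upk1b followed at 12.8 ± 3.58 and Upk3b at 12.1 ± 3.35 CPM per kilobase (SD, n = 4 each), and these neighbours did not differ beyond their spread. Gpm6a at 5.73 ± 2.69 and Rspo1 at 5.66 ± 1.77 CPM per kilobase (SD, n = 4 each) stood next and also did not differ, each being the higher in 2 of 4 controls. Lrrn4 at 3.51 ± 1.66, Wt1 at 1.81 ± 0.771 and Muc16 at 0.524 ± 0.240 CPM per kilobase (SD, n = 4 each) completed the order, and in all 4 controls Rspo1 was above Lrrn4, Lrrn4 above Wt1 and Wt1 above Muc16. The exons of Muc16 cover 26.4 kilobases, against 1.94 to 6.20 for the other 7 genes. No annotated gene shared exonic bases with any of the 8.

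**Figure D2:**
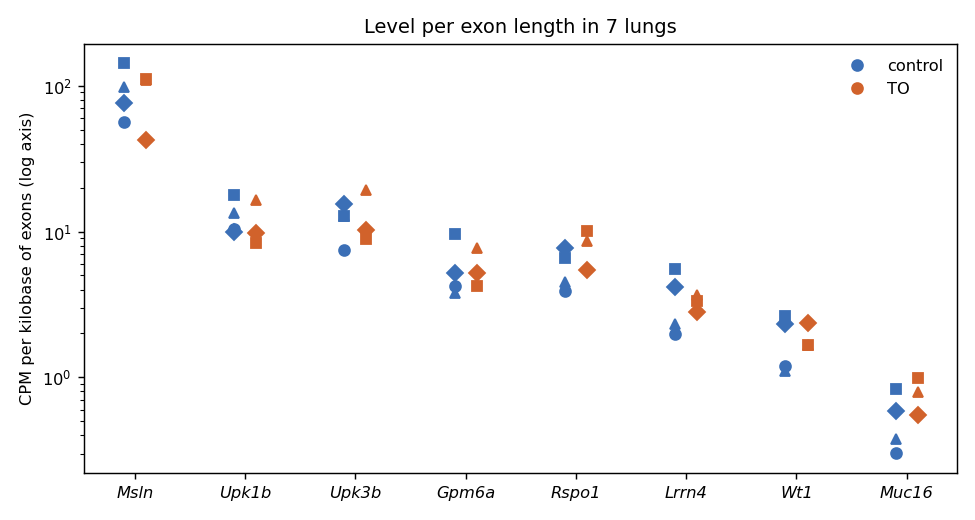
CPM per kilobase of exons (vertical log axis) of the 8 genes in the order of their control means, 1 point for each of 7 lungs (TO 1 left out), blue for control and orange for TO, with the symbol shape giving the replicate number as in the plot of levels. Msln stands alone at the top, with 42.4 to 142 CPM per kilobase, and Muc16 at the bottom, with 0.301 to 0.996.

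Wt1 (ENSMUSG00000016458.14), on chromosome 2 from 105126529 to 105173616, encodes the zinc-finger transcription factor by which mesothelial lineages are traced. It was at 7.35, 6.86, 16.2 and 14.3 CPM in controls 1 to 4 and at 10.3, 10.3 and 14.5 CPM in TO 2, 3 and 4, with 10.3 CPM in TO 1 from 3 read pairs. The TO lungs lay inside the range of the controls, which fell into a lower pair and a higher pair. The log2 fold change of Wt1 was 0.30 in the 6 libraries, with a standard error of 0.31, a 95% interval of -0.41 to 1.01 and an adjusted p of 0.938 from edgeR. It was 0.066 with control 3 added and 0.052 in all 8 libraries.

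Msln (ENSMUSG00000063011.7), on chromosome 17 from 25748613 to 25754378, encodes mesothelin, a glycoprotein anchored on the cell surface. It was at 172, 299.7, 435 and 234 CPM in controls 1 to 4 and at 337, 339.6 and 129.8 CPM in TO 2, 3 and 4. TO 1 had 117 CPM from 34 read pairs, for which counting error alone allows 80.8 to 163 CPM (exact Poisson 95% interval). The highest level was thus in a control lung and the lowest of the 7 deep libraries in TO 4. In the 6 libraries the log2 fold change of Msln was 0.19, with a standard error of 0.33, a 95% interval of -0.56 to 0.94 and an adjusted p of 0.970 from edgeR. The sign turned with control 3 added, to -0.085, and it was -0.26 in all 8 libraries (95% interval -1.07 to 0.54). With the replicate number as a block in all 8 libraries it was -0.38, with a 95% interval of -0.73 to -0.041, an unadjusted p of 0.0307 and an adjusted p of 1 from edgeR, and Msln was higher in TO in 1 of the 4 same-numbered pairs. In the 3 pairs without TO 1 the block gave -0.34 (95% interval -0.75 to 0.062). A block by a 4-digit code shared by several specimen names, added after seeing the data, gave -0.37 in all 8 libraries (95% interval -0.72 to -0.026, unadjusted p = 0.0369, adjusted p = 0.950 from edgeR).

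Muc16 (ENSMUSG00000109564.1), on chromosome 9 from 18495455 to 18674530, encodes the large membrane mucin CA125, which binds mesothelin. It was at 7.92, 9.89, 22.1 and 15.4 CPM in controls 1 to 4, at 20.9, 26.2 and 14.5 CPM in TO 2, 3 and 4, and at 20.6 CPM in TO 1 from 6 read pairs. TO 2 and TO 3 were above controls 1, 2 and 4, whereas TO 4 was below control 4, and control 3 was above TO 2 and TO 4. Its log2 fold change of 0.89 in the 6 libraries was the largest of the 8 genes (standard error 0.29, 95% interval 0.23 to 1.54), with an unadjusted p of 0.0137 and an adjusted p of 0.907 from edgeR. This corresponds to 1.85-fold, with a 95% interval of 1.17-fold to 2.92-fold. With control 3 added the log2 fold change was 0.57 (95% interval -0.20 to 1.34), and it was 0.57 in all 8 libraries (95% interval -0.13 to 1.28). With the replicate number as a block in all 8 libraries it was 0.51 (95% interval -0.024 to 1.05), and with the specimen code as a block 0.55 (95% interval 0.026 to 1.08, unadjusted p = 0.0411, adjusted p = 0.955 from edgeR). In the 3 same-numbered pairs without TO 1 the block gave 0.41 (95% interval -0.12 to 0.95). The kit does not mark strand, yet in the 6 libraries the reads of a single orientation gave 0.53 for Muc16 and those of the other 1.26. The two-sided exact permutation test of log2 CPM gave p = 0.2 in the 6 libraries, where 0.1 is the smallest p possible, and p = 0.2 in all 8, where it is 0.0286.

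Upk3b (ENSMUSG00000042985.7), on chromosome 5 from 136038496 to 136046487, and Upk1b (ENSMUSG00000049436.5), on chromosome 16 from 38773184 to 38800328, encode uroplakins, membrane proteins best known from the urothelium. Upk3b was at 26.5, 44.9, 45.4 and 54.7 CPM in controls 1 to 4, at 67.8, 31.3 and 35.9 CPM in TO 2, 3 and 4, and at 41.2 CPM in TO 1 from 12 read pairs. Upk1b was at 21.6, 27.8, 36.9 and 20.7 CPM in controls 1 to 4, at 34.5, 17.4 and 20.4 CPM in TO 2, 3 and 4, and at 6.87 CPM in TO 1 from 2 read pairs. For both genes TO 2 was the highest TO lung, while TO 3 and TO 4 lay within the range of the controls for Upk3b and below all 4 controls for Upk1b. The log2 fold change of Upk3b was 0.097 (standard error 0.33, 95% interval -0.64 to 0.84) and that of Upk1b 0.044 (standard error 0.26, 95% interval -0.53 to 0.62) in the 6 libraries. That of Upk1b was -0.15 with control 3 added and -0.25 in all 8 libraries, while that of Upk3b was 0.071 and 0.056.

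Lrrn4 (ENSMUSG00000043110.2), on chromosome 2 from 132868305 to 132880891, encodes a membrane protein with leucine-rich repeats. It was at 7.35, 8.68, 20.6 and 15.4 CPM in controls 1 to 4, at 13.6, 12.4 and 10.3 CPM in TO 2, 3 and 4, and at 10.3 CPM in TO 1 from 3 read pairs. The 3 deep TO lungs stood between the lower pair and the higher pair of controls. The log2 fold change of Lrrn4 was 0.20 (standard error 0.29, 95% interval -0.45 to 0.85) in the 6 libraries, and it turned to -0.11 with control 3 added and to -0.12 in all 8 libraries.

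Gpm6a (ENSMUSG00000031517.8), on chromosome 8 from 54954843 to 55060871, encodes a membrane glycoprotein best known from neurons. It was at 13.6, 12.3, 31.1 and 16.8 CPM in controls 1 to 4, at 24.9, 13.6 and 16.7 CPM in TO 2, 3 and 4, and at 10.3 CPM in TO 1 from 3 read pairs. Control 3 was the highest library and TO 2 the next, and the other 5 deep libraries lay between 12.3 and 16.8 CPM. In the 6 libraries the log2 fold change of Gpm6a was 0.37 (standard error 0.25, 95% interval -0.18 to 0.93), and with control 3 added it was -0.0027. It was -0.060 in all 8 libraries.

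Rspo1 (ENSMUSG00000028871.7), on chromosome 4 from 124986430 to 125009099, encodes a secreted R-spondin, which binds the Lgr receptors and keeps Znrf3 and Rnf43 from removing Wnt receptors. It was at 7.53, 8.72, 12.8 and 14.8 CPM in controls 1 to 4, at 16.6, 19.5 and 10.6 CPM in TO 2, 3 and 4, and at 3.43 CPM in TO 1 from 1 read pair. TO 2 and TO 3 were above all 4 controls, and TO 4 was below controls 3 and 4. The log2 fold change of Rspo1 was 0.58 in the 6 libraries, with a standard error of 0.31, a 95% interval of -0.11 to 1.28, an unadjusted p of 0.0909 and an adjusted p of 0.907 from edgeR. It was 0.51 with control 3 added and 0.40 in all 8 libraries. Listed with it were 8 other genes, the R-spondins Rspo2, Rspo3 and Rspo4, the receptors Lgr4, Lgr5 and Lgr6 and the ligases Rnf43 and Znrf3. In the 6 libraries 0 of them were called by edgeR, DESeq2 or limma-voom, 5 had a log2 fold change above 0 and 3 below. Only Lgr6 had an unadjusted p under 0.05 in edgeR in the 6 libraries, with a log2 fold change of -0.40 (standard error 0.18). In all 8 libraries Lgr6 was at -0.46 (unadjusted p = 0.0253 from edgeR). Lgr5 was at 0.97 there (unadjusted p = 0.0343 from edgeR), with 13.7 CPM in TO 1 from 4 read pairs.

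**Figure D3:**
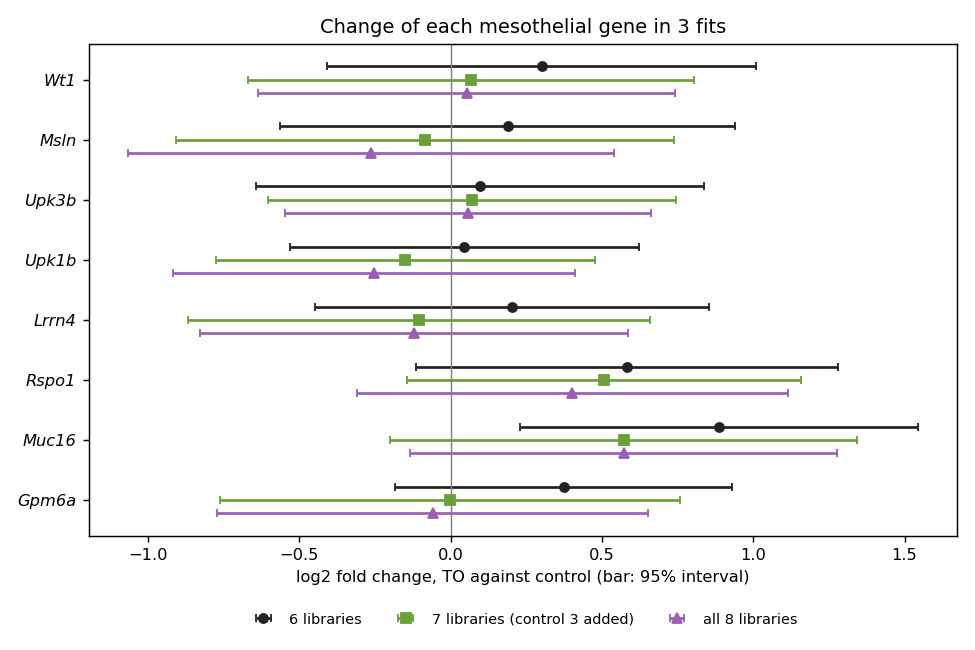
Log2 fold change of TO against control lungs (horizontal axis) of the 8 genes, with 95% intervals of the edgeR fit, in the 6 libraries used first (black), with control 3 added (green) and in all 8 libraries (purple). The interval of Muc16 in the 6 libraries, 0.23 to 1.54, is the only interval of the 24 drawn that does not hold 0, and the other 7 genes' intervals hold 0 in every fit.

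The 8 genes varied among the lungs of a group, and they did not share a single order of the lungs. Over the 7 deep libraries the highest level of a gene was 2.12 (Upk1b) to 3.35 (Msln) times its lowest. Control 3 was the highest of these libraries for 5 genes (Wt1, Msln, Upk1b, Lrrn4 and Gpm6a) and among the 3 highest for 7. TO 2 was among the 3 highest for 7 genes, and control 1 among the 3 lowest for 7. For 4 genes, Wt1, Lrrn4, Rspo1 and Muc16, controls 1 and 2 were the lowest of all 7 libraries. Pearson's correlation of log2 CPM between 2 of the genes, a description over 7 libraries that share depth and dissection, had a median of 0.56 over the 28 pairs and was above 0 in 27. It was highest for Rspo1 with Muc16, at 0.92, and near 0 for Wt1 with Msln, at 0.051, and for Upk1b with Rspo1, at -0.042.

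**Figure D4:**
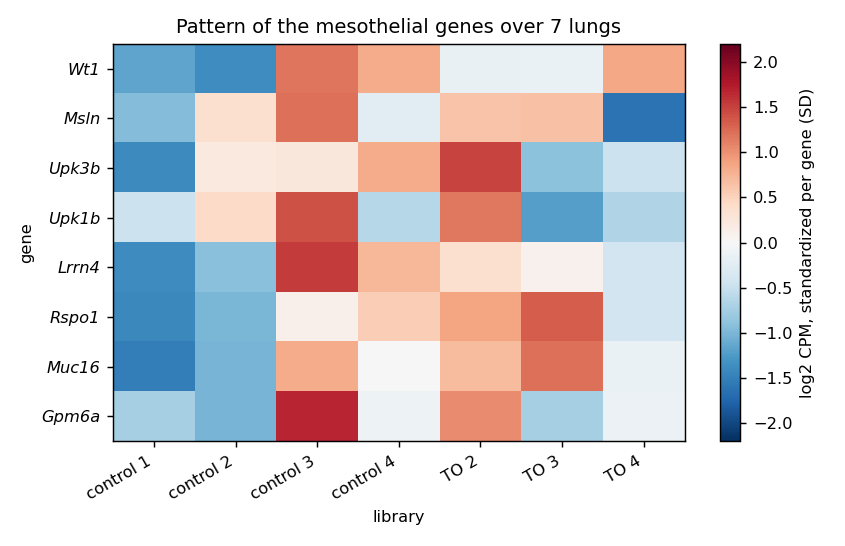
Log2 CPM of each of the 8 genes (rows), standardized to SD units over the 7 deep libraries (columns), with red above and blue below the mean of the gene. The control 3 column is red in all 8 rows and the control 1 column blue in all 8, while TO 3 and TO 4 hold both colours.

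Markers of other cell types differed between the lungs as well. Summed over 8 alveolar type 1 genes, the level was 2138, 2481, 3432 and 2136 CPM in controls 1 to 4 and 2808, 2458 and 1411 CPM in TO 2, 3 and 4. Msln had the same library at the bottom as this sum, TO 4, and the same at the top, control 3. Controls 1 and 4 were the next pair from the bottom for both. The single alveolar type 1 genes were each lowest in TO 4 among the deep libraries, but they differed at the top. Control 3 was the highest for Ager, Hopx, Clic5 and Akap5, whereas TO 2 was the highest for Aqp5, Rtkn2, Col4a3 and Spock2. Summed over 12 cardiomyocyte genes, the level was 647, 480, 4535 and 3742 CPM in controls 1 to 4 and 2111, 3165 and 5610 CPM in TO 2, 3 and 4. The genes of this list did not share a single order. Myl2 was at 1.53, 5.24, 181 and 153 CPM in controls 1 to 4 and at 1.73, 1.78 and 502 CPM in TO 2, 3 and 4. Myl7 was at 51.2, 45.0, 218 and 248 CPM in controls 1 to 4 and at 197, 249 and 199 CPM in TO 2, 3 and 4. Wt1 followed the order of the sum in the 7 deep libraries but for the highest pair, in which control 3 was above TO 4. TO 1 had the highest sum, 7029 CPM, with Wt1 at 10.3 CPM from 3 read pairs. Lrrn4 had its lowest levels in controls 1 and 2 too, but the highest cardiomyocyte sum, that of TO 4, went with a Lrrn4 level of 10.3 CPM, above those of controls 1 and 2 only. None of the 12 cardiomyocyte genes was at 0 in any library. In the 6 libraries all 12 had a log2 fold change above 0, and 0 were called by edgeR, DESeq2 or limma-voom. An unadjusted p under 0.05 was found for 0 in edgeR and DESeq2 and for 9 in limma-voom. Among all genes 5.14% had such a p in edgeR. The share in limma-voom is not given here, so the 9 cannot be set against it. Of 4 genes used as epicardial markers (Tbx18, Sema3d, Tcf21 and Tbx20), of which Tcf21 is abundant in lung mesenchyme itself, the summed level was 273 to 425 CPM in controls and 375 to 436 CPM in TO 2 to 4. Most of this sum was Tcf21, at 220 to 301 CPM in controls and 215 to 340 CPM in TO 2 to 4. Sema3d was at 24.6 to 37.6 CPM in controls and 27.4 to 33.4 CPM in TO 2 to 4. Tbx20 was at 20.3, 11.3, 81.4 and 104 CPM in controls 1 to 4 and at 59.1, 78.5 and 118 CPM in TO 2, 3 and 4. Its order over the 7 deep libraries was that of the cardiomyocyte sum, except that controls 3 and 4 changed places. Its level is therefore not read as that of epicardium alone. Tbx18 was at 2.34 to 9.74 CPM in controls and 7.19 to 8.44 CPM in TO 2 to 4. The part of these cell types in the levels of the mesothelial genes was not tested.

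**Figure D5:**
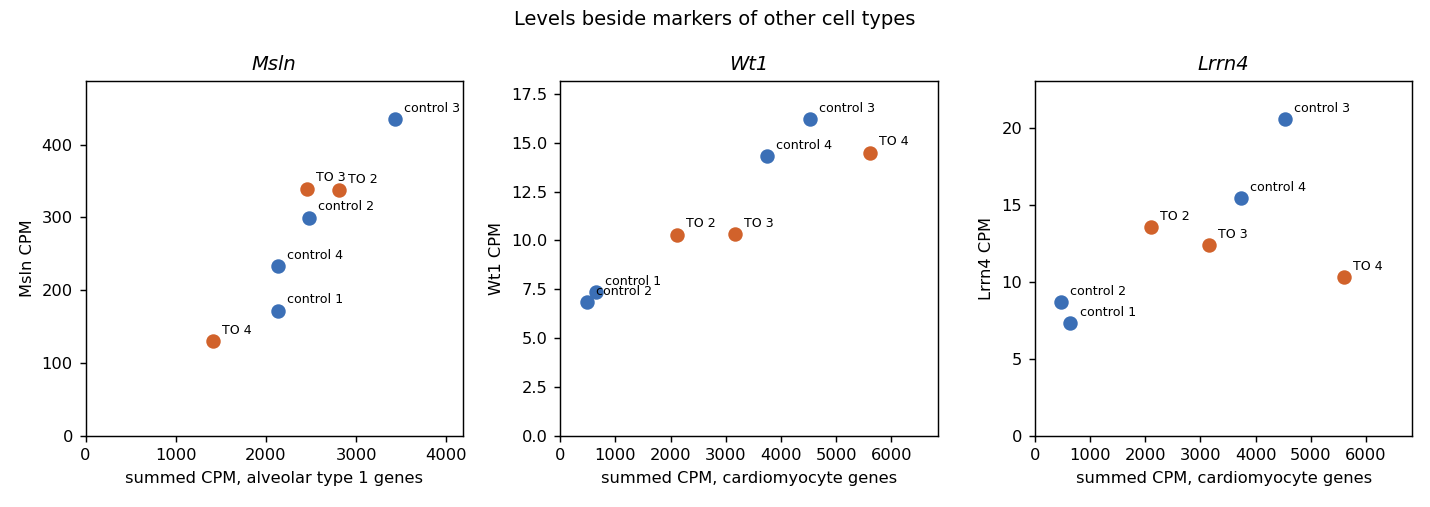
CPM of Msln, Wt1 and Lrrn4 (vertical axes) against the summed CPM of 8 alveolar type 1 genes (left) and of 12 cardiomyocyte genes (middle and right), 1 labelled point for each of the 7 deep libraries, blue for control and orange for TO. Msln runs from TO 4 at 1411 CPM of alveolar type 1 genes to control 3 at 3432, and Wt1 from control 2 at 480 CPM of cardiomyocyte genes to TO 4 at 5610, whereas Lrrn4 in TO 4 lies at 10.3 CPM, below the 4 lungs with lower cardiomyocyte sums other than controls 1 and 2.

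The 6 club cell genes, a list that stands for the airway epithelium in which Muc16 is also transcribed, summed to 657 to 1052 CPM in controls and to 719 to 1836 CPM in TO 2 to 4, with TO 2 and TO 3 the highest of the 7 libraries. Most of this sum is the secretoglobin gene Scgb3a2, at 466 to 821 CPM in controls and 534 to 1252 CPM in TO 2 to 4. For Muc16 TO 3 was the highest, control 3 the next and TO 2 after it, and the mucin gene Muc5b of the club cell list had the same 3 libraries on top in the same order, at 139, 77.9 and 39.4 CPM. The other list genes placed control 3 differently. Its list sum was 867 CPM, against 1052 CPM in control 2. Scgb3a2 (488 CPM) and Scgb1a1 (85.1 CPM) were below control 2 there and Bpifa1 was at 0. Cyp2f2 (126 CPM) came after TO 2 and TO 3, and Cldn10 (91.4 CPM) was at its highest. All 6 club cell genes had a log2 fold change above 0 in the 6 libraries, 0 were called by edgeR, DESeq2 or limma-voom, and 3 had an unadjusted p under 0.05 in each. Among all genes 5.14% had such a p in edgeR, and the shares in DESeq2 and limma-voom are not given here. The log2 fold change of Muc5b, named after its values were seen, was 2.50 (standard error 0.68, unadjusted p = 0.00500, adjusted p = 0.907 from edgeR). It was 1.23 with control 3 added (95% interval -0.68 to 3.14). The part of airway cells in the level of Muc16 was not tested. The 7 neuronal genes, listed for Gpm6a, summed to 28.3 CPM in control 3, the lowest of all libraries, in which Gpm6a was at its highest. These genes did not share a single order. Stmn2 (9.90 CPM), Uchl1 (6.91 CPM), Tubb3 and Snap25 were at their lowest of the deep libraries in control 3. Prph, in contrast, was at 2.76, 4.39, 7.18 and 7.44 CPM in controls 1 to 4. It was at 7.49, 6.74 and 8.76 CPM in TO 2, 3 and 4. Whether neurons contributed to the level of Gpm6a was not tested. Genes of other tissues differed most in single lungs: 8 hepatocyte genes summed to 885 CPM in control 1 and 376 CPM in TO 4 and to 2.83 to 31.9 CPM in the other deep libraries, and 9 skeletal muscle genes to 22.5 CPM in control 2 and 132 to 309 CPM in the other deep libraries. In control 3 most of the skeletal muscle sum of 174 CPM was Ckm (130 CPM) and Acta1 (28.4 CPM), with Myh3 at 1.17 CPM and Myod1 at 0. Myh3 was at 27.8, 20.4 and 53.1 CPM in TO 2, 3 and 4. The 6 thymocyte genes summed to 0.566 to 2.60 CPM in these libraries except TO 3, where the sum was 17.6 CPM. The lung genes Nkx2-1, Sftpc, Sftpb, Foxf1 and Tbx4 summed to 7261 CPM or more in each deep library. In TO 1 thymocyte genes summed to 261 CPM and skeletal muscle genes to 2743 CPM, the highest of all libraries, so the values that include TO 1 were given after those without it.

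A list of 15 further mesothelial genes was read from the same fit (Bnc1, Aldh1a2, Nkain4, Pkhd1l1, Calb2, Krt19, Myrf, Rarres2, C3, Efemp1, Ildr2, Anxa8, Cldn15, Prg4 and Fgf9). Of these, 8 had a log2 fold change above 0 and 7 below in the 6 libraries, with a median of 0.060, and 0 were called by edgeR, DESeq2 or limma-voom. With control 3 added and in all 8 libraries 6 were above 0 and 9 below, with medians of -0.0071 and -0.034. The complement gene C3 (ENSMUSG00000024164.15), which liver and epithelia also transcribe, was the only gene of this list with an unadjusted p under 0.05 in edgeR in the 6 libraries. Its level was 49.5, 26.5, 121 and 33.2 CPM in controls 1 to 4 and 80.9, 142 and 45.5 CPM in TO 2, 3 and 4. The log2 fold change of C3 was 1.29 in the 6 libraries, with a standard error of 0.37 and an adjusted p of 0.907 from edgeR, and control 3, which was not among them, was above TO 2 and TO 4. It was 0.63 with control 3 added (95% interval -0.53 to 1.79) and 0.53 in all 8 libraries (95% interval -0.51 to 1.57). Krt19, a keratin of mesothelium and of airway epithelium alike, had the highest CPM of the list, not scaled to exon length. It was at 244 to 399 CPM in controls and 216 to 273 CPM in TO 2 to 4, with a log2 fold change of -0.27 (standard error 0.14). With control 3 added that of Krt19 was -0.41 (unadjusted p = 0.0475, adjusted p = 0.9998 from edgeR), and in all 8 libraries it was -0.47 (unadjusted p = 0.0199, adjusted p = 0.99999 from edgeR), the only gene of this list with an unadjusted p under 0.05 in those fits. The transcription factor gene Myrf was at 56.6 to 76.2 CPM in controls and 34.3 to 64.8 CPM in TO 2 to 4, with a log2 fold change of -0.31 (standard error 0.23). Pkhd1l1, named after its values were seen, ordered the 7 deep libraries as Lrrn4 did, from 6.17 CPM in control 1 and 6.70 CPM in control 2 to 19.1 CPM in control 3, with control 4 next below at 16.7 CPM.

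The genes with the pattern most like that of the 8 were taken by Pearson's correlation over the 7 deep libraries between their log2 CPM and the mean standardized log2 CPM of the 8, among 15861 other genes with a mean of at least 1 CPM. The 6 highest were Tgfa (0.99), Rassf8 (0.98), Osbpl11 (0.98), Ube2o (0.97), Gatad1 (0.97) and 2610021A01Rik (0.97). Each had its lowest level in control 1, and their range was narrower than that of the members. Tgfa, which encodes an EGF receptor ligand, ran from 9.37 CPM in control 1 to 14.6 CPM in control 3, with TO 2 at 13.9 CPM. With 7 libraries and this many genes, correlations of this size are a description of the pattern.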

How the data were processed

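The authors barcoded RNA of whole lungs with NexteraXT, sequenced 150-bp read pairs and aligned them to GRCm38 with STAR. Each deposited file holds unnormalized counts by gene, of which the column for both strands together was used. The STAR version and annotation are not given in the sources used here. Read pairs not assigned to a single gene (23.1% to 27.1%) stayed out of totals and tests. Symbols, exon lengths and positions were taken from GENCODE M21, to which 55144 of 55385 IDs matched without the version.

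A gene entered the tests with 5 reads or more in at least 3 libraries. Tests used the quasi-likelihood test of edgeR 4.0.16 (TMM, Benjamini-Hochberg, threshold 0.1) in R 4.3.3, with DESeq2 1.42.0 and limma-voom (limma 3.58.1) as alternatives. Log2 CPM used a prior count of 2. Intervals for TO 1 cover counting error only. The members and lists were chosen with earlier results of these data known. The genes named are all 8 members, the 3 further mesothelial genes highest in CPM (not scaled to exon length), any list member called, and the 6 genes most like the members. Any other gene was picked with its values known. Some related genes are not reported here. The scripts were tested on simulated data. Alternatives were other filters, scaling, tools, strands and libraries, and blocks.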

Additional observations from a re-analysis of the deposited data

Results flagged for a closer look

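The level of Wt1 in TO 4, 14.5 CPM, stood apart from TO 1, 2 and 3, which lay at 10.3 CPM each, although it was within the range of the controls. The TO 1 value rests on 3 read pairs, for which counting error alone allows 2.12 to 30.1 CPM (exact Poisson 95% interval). The closeness of TO 1 to TO 2 and TO 3 therefore carries little weight. Summed levels of other tissues' genes stood apart in single lungs, for the skeletal muscle list in TO 1 at 2743 CPM, for the hepatocyte list in control 1 at 885 CPM, and for the thymocyte list in control 2 at 2.50 CPM and in TO 1 at 261 CPM. These 5 values came from 44 groups of 4 lungs examined for a lung whose gap to the nearest other exceeds Dixon's 95% critical value, and chance gives about 1 in 20.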

How the results depend on the processing

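The 8 genes were refitted under 20 alternatives, and none was called in any of the 160 fits. Rspo1 and Muc16 kept their direction in all 20, with log2 fold changes of 0.23 to 0.94 and 0.41 to 1.26. In 32 fits of the other 6 genes the direction reversed. In all 8 libraries it did so for Msln (-0.26), Upk1b (-0.25), Lrrn4 (-0.12) and Gpm6a (-0.060), and in the 7 libraries without TO 1 for Msln (-0.085), Upk1b (-0.15), Lrrn4 (-0.11) and Gpm6a (-0.0027). Leaving out each of the 6 libraries in turn gave -0.0078 to 0.53 for Msln, -0.32 to 0.33 for Upk3b and -0.30 to 0.24 for Upk1b. The sign turned without control 1 for Upk3b and Upk1b, without control 4 for Upk1b, without TO 2 for Msln, Upk3b and Upk1b, and without TO 3 for Msln. The median of the 8 genes, 0.25, was 0.083 without control 1, 0.10 without TO 2, 0.55 without control 4 and 0.38 without TO 4. The count of all genes called, 0, became 40 with no filter on low counts and 44 with DESeq2, and 0 to 144 with a library left out (52 without control 4, 144 without TO 4). The causes were not tested.

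With the replicate number as a block, 3 genes were called in all 8 libraries and 219 in the 6, and none of them was a mesothelial gene. In the 6 libraries only the numbers 2 and 4 have a lung of each group, so that fit rests on those numbers alone. The median of the 8 genes with this block was -0.085 in all 8 libraries, with Msln at -0.38, Upk3b at -0.087, Upk1b at -0.34, Lrrn4 at -0.17 and Gpm6a at -0.084. Msln was at -0.33 in the 6. In the 3 same-numbered pairs without TO 1, a fit added after seeing the data, the block gave 3 genes called, a median of -0.12, Wt1 at -0.017, Msln at -0.34, Upk3b at -0.18, Upk1b at -0.26, Lrrn4 at -0.23 and Gpm6a at -0.057. A block by a 4-digit code that several specimen names share, whose meaning the sources used here do not give and which was added after seeing the data, gave -0.37 for Msln, -0.041 for Upk3b, -0.30 for Upk1b, -0.087 for Lrrn4 and -0.022 for Gpm6a. Deviations from the group means correlated over genes at 0.062 for the pair with the shallow TO 1 and at 0.12 to 0.25 for the other 3 pairs of the same number, and at 0.26 to 0.38 for these 3 when TO 1 was left out. Of 8 lungs, 5 correlated best with their own number. No label says what a number shares, so whether the numbers pair the lungs is not settled, and the values with and without the block are given side by side. Depth limits TO 1, in which Rspo1 rested on 1 read pair and Upk1b on 2.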
